A study of Mus musculus with 31 samples.

Results

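The proneural bHLH genes described here are 9 transcription factor genes, picked by symbol and looked up by Ensembl identifier among the 47729 genes of the count table. They are Neurog1, Neurog2, Neurod1, Neurod2, Neurod4, Neurod6, Nhlh1, Nhlh2 and Insm1, and all 9 were found and passed the filter on low counts. Insm1 codes for a zinc finger protein rather than a bHLH protein and is kept with the others as a usual companion of proneural genes. The libraries came from pieces of nerve cut by laser from cryosections of Sox10:H2BVenus transgenic mouse embryos, in which a bacterial artificial chromosome with Sox10 regulatory sequence drives a nuclear Venus protein in neural crest-derived glia. All groups carry this transgene and none was treated. Olfactory nerve was taken at 3 stages, E11.5, E13.5 and E16.5. The olfactory nerve layer (ONL, the sheet of axons and olfactory ensheathing cells on the surface of the olfactory bulb) was taken whole at E13.5 and as outer and inner parts at E16.5, the stage at which the trigeminal nerve was also cut.

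The labels and the study's own table of group means place 10 of the 31 libraries differently, and the rest of the text rests on this point wherever an E11.5 or E13.5 group enters. The group means of that table came out identical, to within 0.000858%, for all 7 groups under the following grouping. E11.5 olfactory nerve held 4 libraries that carry an E13.5 ONL label (replicates 2 to 5). E13.5 ONL held the 4 with an E11.5 olfactory nerve label together with replicate 1 of those labelled E13.5 olfactory nerve, and the remaining 7 early libraries made up E13.5 olfactory nerve. The labels gave identical means for the 4 E16.5 groups alone. Groups are named below as in that table, with 4 libraries of E11.5 olfactory nerve, 7 of E13.5 olfactory nerve, 5 of E13.5 ONL, 4 each of E16.5 olfactory nerve, outer ONL and inner ONL, and 3 of E16.5 trigeminal nerve. Levels of the early libraries are given by that grouping, with a paragraph on the levels by the labels after them, and tests of the early groups are given both ways. In the early groups the libraries outnumber the embryos given in the methods, so some come from one embryo, but which ones is not stated, and p-values measure the spread between pieces of tissue.

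The libraries held 3512627 to 36705535 counts. The 9 glial markers listed for olfactory and trigeminal nerve (Sox10 and Fabp7 among them) were detected in every group, with a summed level from 571 CPM (counts scaled to the size of the library) in the lowest E13.5 olfactory nerve library to 36440 CPM in the highest outer ONL library. Sox10 itself ran from 39.9 to 85.4 CPM in E13.5 olfactory nerve and from 572 to 712 CPM in outer ONL. Each group thus held glia, though not glia alone. By in situ hybridization (staining of RNA in sections), the study found that the pieces also took in some adjacent tissue. Many of its candidate genes were expressed there and not in glia, among them genes of mesenchyme, olfactory bulb or olfactory epithelium. In such bulk samples, fewer cells of a type and less RNA per cell cannot be told apart.

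Proneural bHLH proteins bind DNA at E-boxes as partners of the widely present E-proteins and drive progenitors to become neurons. They act in a cascade. Neurog1 and Neurog2 are determination factors of dividing progenitors, Neurod1, Neurod4, Nhlh1, Nhlh2 and Insm1 are typical of the step out of the cell cycle, and Neurod2 and Neurod6 mark young excitatory neurons of the forebrain. In the nasal placode and olfactory epithelium the Neurog1 and Neurod1 steps produce olfactory sensory neurons, while Neurog2 is known from progenitors of the dorsal telencephalon. Id proteins block E-proteins, and Hes and Hey proteins repress proneural genes.

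The sequences just before the gene starts are shown for both determination factors, which were measured in different regions of the nerve, and for the late forebrain factors Neurod2 and Neurod6, whose levels went together. These are 250 bases upstream of the RefSeq start on the strand of the gene (GRCm38.p6), in the order Neurog1 (chr13:56252181-56252430, minus strand), Neurog2 (chr3:127632886-127633135, plus strand), Neurod2 (chr11:98329646-98329895, minus strand) and Neurod6 (chr6:55681264-55681513, minus strand). Capitals mark the E-box letters CANNTG, which read the same on both strands.
Neurog1: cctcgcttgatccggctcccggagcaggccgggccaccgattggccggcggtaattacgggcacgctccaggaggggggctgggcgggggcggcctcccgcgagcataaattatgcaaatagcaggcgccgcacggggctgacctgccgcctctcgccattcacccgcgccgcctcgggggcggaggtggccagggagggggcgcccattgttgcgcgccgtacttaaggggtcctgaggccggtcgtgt
Neurog2: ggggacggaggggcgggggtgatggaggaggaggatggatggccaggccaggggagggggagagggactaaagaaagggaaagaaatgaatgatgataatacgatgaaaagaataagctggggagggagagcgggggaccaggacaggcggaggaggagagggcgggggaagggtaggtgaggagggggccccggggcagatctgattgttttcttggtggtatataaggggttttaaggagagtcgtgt
Neurod2: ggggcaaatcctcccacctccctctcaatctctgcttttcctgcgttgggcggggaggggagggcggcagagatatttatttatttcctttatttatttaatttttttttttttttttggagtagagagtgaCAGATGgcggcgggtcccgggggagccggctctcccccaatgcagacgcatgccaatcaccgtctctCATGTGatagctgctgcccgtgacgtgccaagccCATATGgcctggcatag
Neurod6: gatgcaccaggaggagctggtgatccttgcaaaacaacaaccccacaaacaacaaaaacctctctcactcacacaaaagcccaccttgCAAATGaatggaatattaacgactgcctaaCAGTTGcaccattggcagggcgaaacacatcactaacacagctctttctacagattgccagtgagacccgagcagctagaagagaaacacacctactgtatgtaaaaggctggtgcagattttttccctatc
The windows of Neurog1 and Neurog2 held no E-box letters, that of Neurod6 held 2, at positions -162 and -132 from the start, and that of Neurod2 held 3, at -118, -51 and -17. Of 32817 windows of the same length, 66.2% held at least 1 such match and 12.2% held 3 or more. Neurod2, Nhlh1 and Nhlh2 windows each held the form CAGATG, in one or the other direction present in 14.5% of all windows. RefSeq windows were found for 8 of the 9 genes (not Insm1). A match in these letters is a description of the sequence and not a binding site.

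**Figure D1:**
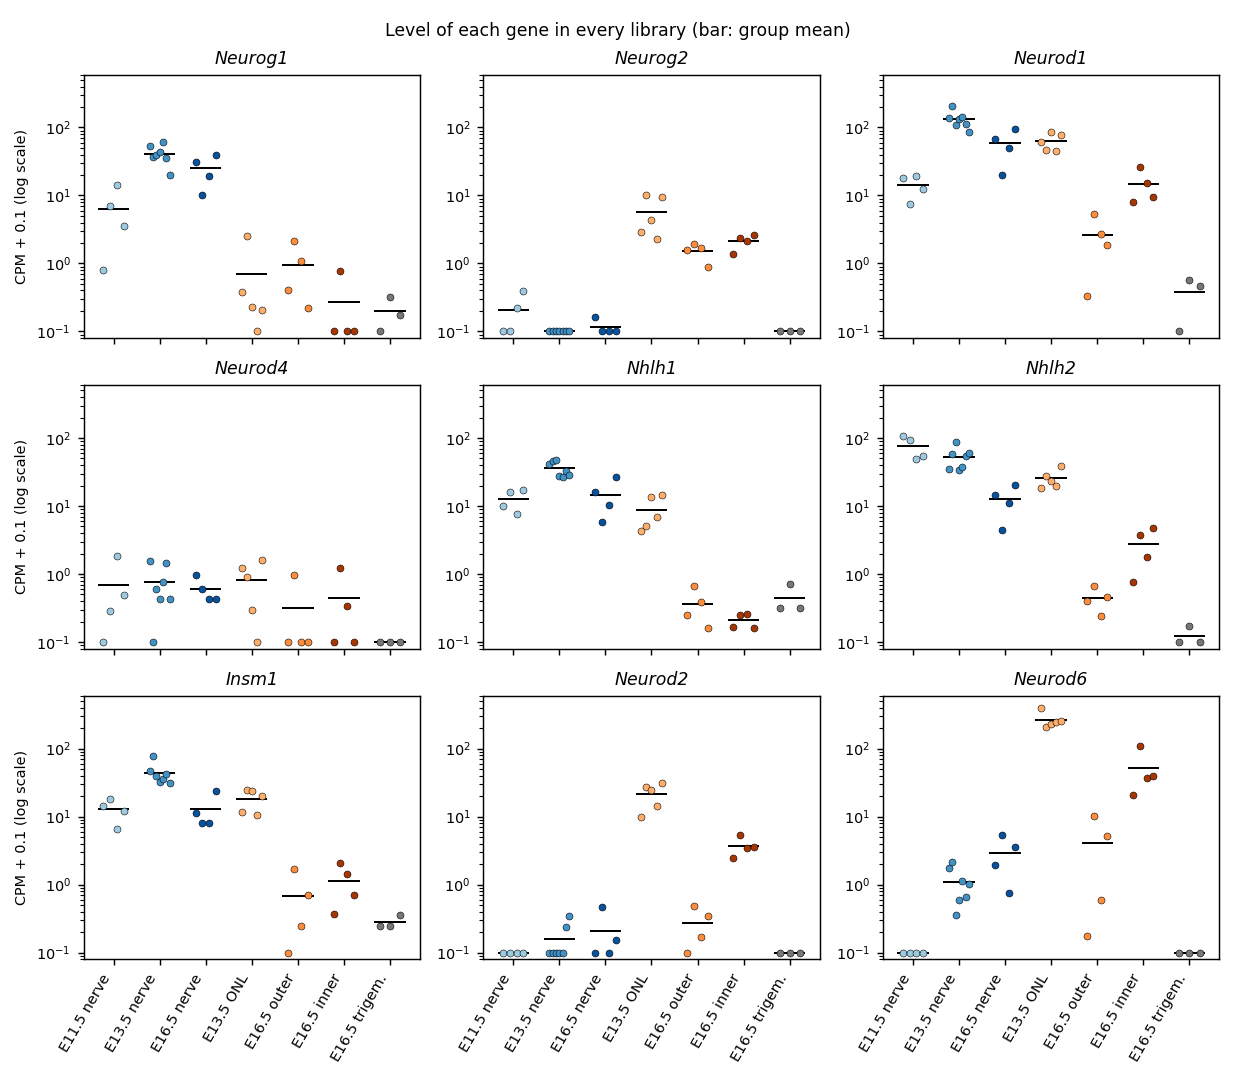
Level of the 9 genes in each of the 31 libraries, in CPM plus 0.1 on a log axis, with a bar at the mean of each group. Neurog1 stood high in olfactory nerve of E13.5 and E16.5 and Neurog2 in the ONL groups, and Neurod6 reached its highest levels, 206 to 397 CPM, in the 5 E13.5 ONL libraries. By the labels, Neurog2 and Neurod6 had their highest means in E11.5 olfactory nerve instead.

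Neurog1 (ENSMUSG00000048904, chr13:56250478-56252163, minus strand), which specifies olfactory sensory neuron precursors, was a gene of the olfactory nerve pieces. In E13.5 olfactory nerve it had 19.8 CPM in the lowest library, 39.5 in the median and 60.8 in the highest. In E16.5 olfactory nerve it had 31, 10.1, 19.4 and 39.2 CPM in replicates 1 to 4, and in E11.5 olfactory nerve 0.689, 6.79, 14.1 and 3.39 CPM (E13.5 ONL replicates 2 to 5 by their labels). All nerve libraries of E13.5 and E16.5 stood above all ONL libraries, whereas the E11.5 libraries overlapped with E16.5 nerve and with ONL. In E13.5 ONL the levels were 0.277, 2.45, 0.13, 0 and 0.107 CPM, in outer ONL 0.307, 2.01, 0.996 and 0.122 CPM, and in inner ONL a single library, replicate 2, had counts, at 0.677 CPM. The trigeminal nerve libraries had 0, 0.216 and 0.0735 CPM.

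Neurog2 (ENSMUSG00000027967, chr3:127633135-127635631, plus strand), a determination factor of cortical progenitors, lay the other way. It was present in every ONL library and absent from nearly every nerve library. E13.5 ONL had 2.77, 10.1, 4.23 and 2.18 CPM in its libraries with an E11.5 label (replicates 1 to 4) and 9.24 CPM in the one with an E13.5 label. Outer ONL had 1.46, 1.82, 1.57 and 0.794 CPM and inner ONL 1.28, 2.26, 2.04 and 2.53 CPM, so that both parts of the layer overlapped and lay below or at the lower end of the E13.5 range. All 7 E13.5 olfactory nerve and all 3 trigeminal libraries were at 0, 1 E16.5 olfactory nerve library was at 0.0619 CPM, and 2 E11.5 libraries were at 0.124 and 0.291 CPM. Per kilobase of exon, the mean in E13.5 ONL was 2.56 CPM for Neurog2 against 0.351 CPM for Neurog1, and in E13.5 olfactory nerve 0 against 24.3 CPM.

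Of the genes of the transition step, Neurod1 (ENSMUSG00000034701, chr2:79452521-79456751, minus strand), which follows Neurog1 in the olfactory lineage, was detected in every olfactory group. In E13.5 olfactory nerve it had 86.8 CPM in the lowest library, 134 in the median and 206 in the highest, and in E13.5 ONL it had 62, 47.1, 86.5, 44.7 and 76.5 CPM. E16.5 olfactory nerve had 67.1, 20.2, 50.1 and 95.1 CPM, inner ONL 7.87, 26.2, 15.2 and 9.34 CPM and outer ONL 0.23, 5.28, 2.63 and 1.77 CPM. The ranges of E13.5 olfactory nerve and E13.5 ONL nearly met without overlapping, and those of inner and outer ONL were also apart. E11.5 olfactory nerve had 17.8, 7.31, 19.4 and 12.3 CPM and trigeminal nerve at most 0.469 CPM. Of its exons, 201 bases are shared with Cerkl on the same strand and 154 with Gm26755 on the other, so counts at those bases cannot be given to one gene with certainty.

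Nhlh1 (ENSMUSG00000051251, chr1:172052292-172057573, minus strand) and Nhlh2 (ENSMUSG00000048540, chr3:102010076-102015492, plus strand) are paired bHLH factors of newborn neurons. Nhlh1 ran from 27 to 47.3 CPM, with a median of 33.1, in E13.5 olfactory nerve, and had 9.94, 15.8, 7.43 and 17.1 CPM at E11.5 and 15.8, 5.63, 10.4 and 26.3 CPM at E16.5. Nhlh2 had 107, 94.1, 48.9 and 54.5 CPM in E11.5 olfactory nerve, 34.1 to 87.6 CPM with a median of 53.9 at E13.5, and 14.5, 4.39, 10.9 and 20.4 CPM at E16.5. The E13.5 nerve libraries of Nhlh1 stood above those of the other stages, while the Nhlh2 ranges of E11.5 and E13.5 overlapped and those of E16.5 lay below both. In E13.5 ONL Nhlh1 had 4.15, 5.04, 13.3, 6.75 and 14.2 CPM and Nhlh2 18.5, 27.4, 23.3, 19.3 and 38.3 CPM. At E16.5 Nhlh1 was at 0.565 CPM or less in every ONL library, and Nhlh2 was at 0.142 to 0.565 CPM in outer ONL but 0.673, 3.61, 1.65 and 4.7 CPM in inner ONL.

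Nhlh2 is known for its part in neurons that make gonadotropin-releasing hormone, which migrate along this nerve. The hormone gene Gnrh1 varied far more between libraries of a group than Nhlh2 did, from 0.324 to 350 CPM in E13.5 olfactory nerve and from 1.66 to 319 CPM in E13.5 ONL. In E11.5 olfactory nerve, where Nhlh2 was at 48.9 CPM or more, Gnrh1 was at 0.207 to 1.98 CPM, while the groups carrying the labels E11.5 olfactory nerve and E13.5 ONL spanned 1.66 to 319 and 0.207 to 157 CPM.

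Insm1 (ENSMUSG00000068154, chr2:146221921-146225020, plus strand), which promotes the last divisions of neuronal progenitors, went with Nhlh1. It had 30.6 CPM in the lowest, 39.1 in the median and 77.8 in the highest library of E13.5 olfactory nerve and 14.1, 18.3, 6.47 and 11.9 CPM at E11.5. At E16.5 it had 11.1, 7.98, 7.93 and 23.9 CPM in the nerve, and in the ONL it fell from 10.3 to 24.6 CPM at E13.5 to 1.96 CPM or less. Neurod4 (ENSMUSG00000048015, chr10:130268152-130280240, minus strand), a factor of neurogenesis in the retina and hindbrain, was low in every group, with no library above 1.74 CPM and trigeminal nerve at 0. Its ranges overlapped between all olfactory groups.

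Neurod6 (ENSMUSG00000037984, chr6:55677822-55681263, minus strand), which marks young cortical excitatory neurons, had the highest level of the 9 genes in any group. The 5 E13.5 ONL libraries had 397, 206, 232, 242 and 250 CPM. Inner ONL had 20.8, 109, 36.7 and 39.4 CPM, outer ONL 0.0767, 10.2, 0.498 and 5.07 CPM and E16.5 olfactory nerve 1.86, 5.26, 0.65 and 3.43 CPM. The E13.5 ONL libraries stood above all others, inner ONL stood above outer ONL and nerve, and the last 2 overlapped. E13.5 olfactory nerve had at most 2.08 CPM, and E11.5 olfactory and trigeminal nerve were at 0 in all libraries. Neurod2 (ENSMUSG00000038255, chr11:98325415-98329648, minus strand), its close relative, had 9.68, 27.4, 24.5, 14.4 and 31.4 CPM in E13.5 ONL and 2.35, 5.27, 3.38 and 3.44 CPM in inner ONL, with 0.377 CPM or less in every other library. Per kilobase of exon, the E13.5 ONL means were 123 CPM for Neurod6, 23.2 for Neurod1, 6.84 for Neurod2 and 2.56 for Neurog2.

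By the labels, the early levels were spread otherwise. Libraries labelled E11.5 olfactory nerve, E13.5 olfactory nerve and E13.5 ONL had means of 22.1 ± 4.1 (SD, n = 4), 49.3 ± 19 (SD, n = 7) and 72.8 ± 26 CPM (SD, n = 5) for Nhlh2. For Nhlh1 the means were 7.30 ± 4.1, 33.9 ± 12 and 15.7 ± 8.0 CPM and for Insm1 17.5 ± 7.6, 41.9 ± 18 and 16.3 ± 9.1 CPM, in the same order of groups. For Neurog1 they were 0.714 ± 1.2, 38.2 ± 19 and 8.97 ± 7.9 CPM and for Neurod1 60.1 ± 19, 131 ± 40 and 28.7 ± 33 CPM. Neurod6 had 269 ± 87, 36.6 ± 94 and 0.182 ± 0.41 CPM, Neurod2 19.0 ± 8.3 and 4.51 ± 12 CPM in the nerve groups, and Neurog2 4.81 ± 3.6, 1.32 ± 3.5 and 0.0831 ± 0.13 CPM. Neurod2, Neurod6 and Neurog2 were then highest in the group labelled E11.5 olfactory nerve.

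**Figure D2:**
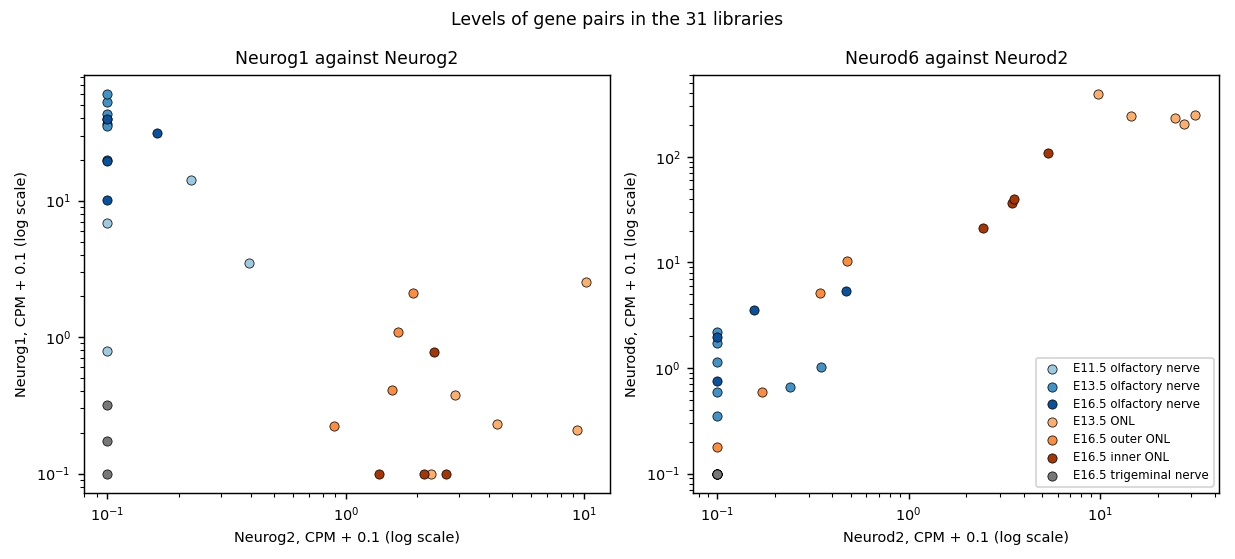
Neurog1 against Neurog2 (left) and Neurod6 against Neurod2 (right), each point 1 of the 31 libraries, in CPM plus 0.1 on log axes. Libraries with over 3 CPM of Neurog1 had at most 0.291 CPM of Neurog2, while Neurod2 and Neurod6 were both at 0 in trigeminal and E11.5 nerve and both highest in E13.5 ONL. By the labels, Neurod2 and Neurod6 had their highest means in E11.5 olfactory nerve instead.

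Groups were compared by edgeR's quasi-likelihood test, with p-values adjusted after Benjamini and Hochberg over the 19332 genes tested, and an adjusted p under 0.05 counted as a call. Every adjusted p in the text is from this test unless DESeq2 is named. Outer ONL was compared with olfactory nerve at E16.5, where the nerve pieces came from the olfactory mucosa, on the way of the axons to the ONL. Lower in outer ONL were 5 of the 9 genes, against 11.8% of all genes, and 1 was higher, against 10.2%. The log2 difference was -5.72 for Nhlh1 (SE 0.56, adjusted p = 7.54e-09) and -5.13 for Nhlh2 (SE 0.57, adjusted p = 7.32e-08). It was -4.53 for Neurod1 (SE 0.56, adjusted p = 3.65e-07), -4.38 for Insm1 (SE 0.60, adjusted p = 1.95e-06) and -4.83 for Neurog1 (SE 0.89, adjusted p = 0.000145). Without outer ONL replicate 2, which had the most Neurog1, Neurod1, Insm1 and Nhlh1 of the outer libraries, the values were -5.72 for Neurog1, -5.21 for Neurod1, -5.53 for Insm1 and -6.43 for Nhlh1. Neurog2 was at least 7.7-fold higher in outer ONL (adjusted p = 0.000302), a bound because no nerve library had over 3 counts. Neurod2, Neurod4 and Neurod6 did not pass (adjusted p = 0.67, 0.619 and 0.674). For Neurod6 the log2 difference was 0.52 (SE 0.71), and it was -0.52 without outer ONL replicate 2, the library with 10.2 CPM, and -0.21 with replicate number as a block.

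**Figure D3:**
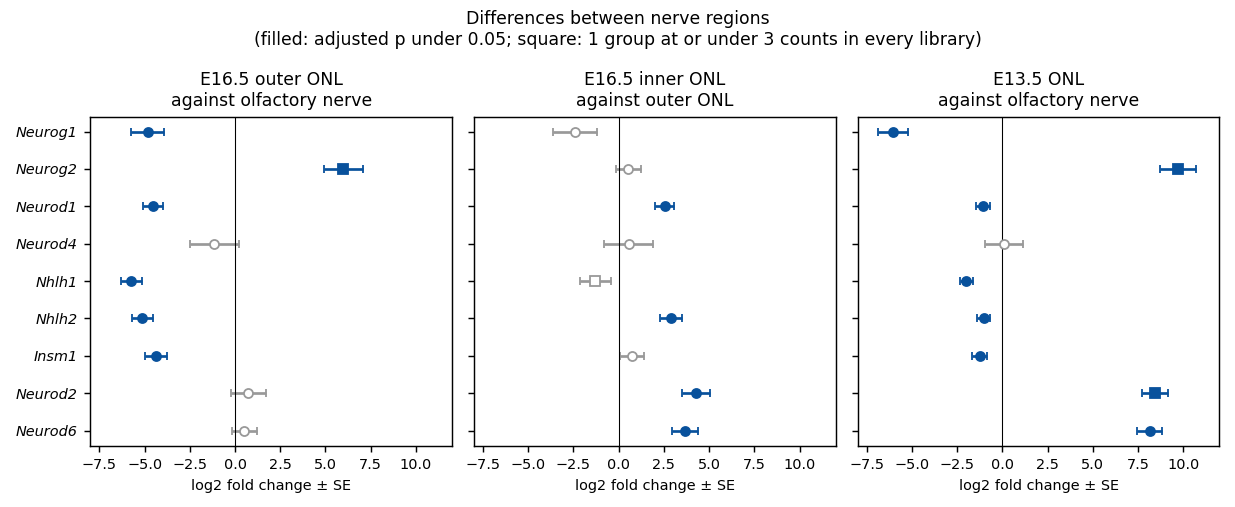
Log2 fold change with its SE for the 9 genes in 3 comparisons between regions, filled where the adjusted p was under 0.05 and square where 1 group had at most 3 counts in every library, for which the fitted value depends on a small added count. Neurog2 lay to the right in both comparisons of ONL with nerve, where Neurog1, Neurod1, Nhlh1, Nhlh2 and Insm1 lay to the left, and by the labels the E13.5 values of Neurog2, Neurod2 and Neurod6 turn to the left and that of Nhlh2 to the right.

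Epithelium markers differed between the same pieces. The 9 listed markers of olfactory epithelium progenitors and non-neuronal cells summed to 234 to 461 CPM in E16.5 olfactory nerve, against 14 to 35.3 CPM in outer ONL and 24.6 to 40.2 CPM in inner ONL, with Krt5 and Cyp2g1 at 3 counts or fewer in every library of both ONL parts. At E13.5 the sum was 313 to 530 CPM in olfactory nerve and 27.1 to 62.5 CPM in ONL, and at E11.5 it was 129 to 228 CPM (by the labels 50.1 to 530, 129 to 394 and 27.1 to 62.5 CPM). By in situ hybridization, the study counted Neurog1 among candidate genes that ensheathing cells and Schwann cells do not express. The part of epithelium cells in the levels of Neurog1, Neurod1, Nhlh1, Nhlh2 and Insm1 in the nerve was not tested here. Trigeminal nerve, in which those 5 genes were at 0.613 CPM or less, had 58.4 to 87.3 CPM of the same markers. The summed level of the 7 listed markers of immature sensory neurons ran otherwise at E16.5. It was 2789 to 3725 CPM in olfactory nerve, 2097 to 3418 CPM in outer ONL and 4252 to 6622 CPM in inner ONL. The 8 listed markers of mature sensory neurons summed to 134 to 253, 33.5 to 46.2 and 23.6 to 32 CPM in the same groups. The immature sum was led by Stmn1 and Dpysl3, with means of 2594 and 805.5 CPM over all libraries. By in situ hybridization, the study found Dpysl3 in ensheathing cells and olfactory bulb too, so this sum does not measure sensory neurons alone. Singly, 1 of the 7 was higher and 4 lower in outer ONL than in nerve (by the labels 1 and 3). In inner ONL 5 were higher and 2 lower than in nerve (by the labels 4 and 2). The part of sensory neurons was not tested either.

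Inner and outer ONL were compared as the deep and superficial parts of the layer, which were cut by position. The study reported that these cuts failed to separate inner from outer ensheathing cells as told apart by their markers. It also reported that tissue of the olfactory bulb was represented in the inner pieces. Neurod2, Neurod6, Nhlh2 and Neurod1 were higher in inner ONL, 4 of 9 genes against 8.20% of all genes, and none was lower. The log2 differences were 4.26 for Neurod2 (SE 0.76, adjusted p = 0.000238), 3.67 for Neurod6 (SE 0.70, adjusted p = 0.000568), 2.90 for Nhlh2 (SE 0.60, adjusted p = 0.000808) and 2.54 for Neurod1 (SE 0.53, adjusted p = 0.000992). Replicate 2 of both parts decided the size for some genes, with Neurod6 at 2.97 without the inner and 4.71 without the outer one, and Neurod1 at 3.22 and Neurod2 at 4.92 without the outer one. Neurog2 did not pass, at 0.52 (SE 0.70, adjusted p = 0.745), and neither did Neurog1, at -2.40 (SE 1.22, adjusted p = 0.232). Because the early libraries share the estimate of spread, grouping them by the labels left 2 of the 4 calls, Nhlh2 and Neurod1 (against 5.21% of all genes called higher), with adjusted p = 0.161 for Neurod2 and 0.174 for Neurod6.

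Bulb neuron markers differed too. The 11 listed markers of olfactory bulb and forebrain projection neurons summed to 459 to 917 CPM in inner ONL and 14.3 to 171 CPM in outer ONL, and the highest sums in both parts were in replicate 2, which also had the most Neurod6. In E13.5 ONL the sum was 936 to 1254 CPM, and in E13.5 olfactory nerve it was 130 to 187 CPM, with Eomes and Tbx21 at 3 counts or fewer throughout. Trigeminal nerve had 195 to 223 CPM with Neurod2 and Neurod6 at 0, with Fezf2 and Emx1 at 3 counts or fewer. E16.5 olfactory nerve had 116.5 to 217.1 CPM, with Neurog2 at 0.0619 CPM or less. The sum was thus not higher in outer ONL than in this nerve, although Neurog2 was. Singly, 3 of the 11 markers were higher and 4 lower in outer ONL than in this nerve (by the labels 0 and 2). Reln had the highest mean of the 11, at 145.6 CPM over all libraries. Interneuron markers (7 listed) were at 118 to 179 CPM in inner ONL against 11.3 to 54.3 CPM in outer ONL, and at 21.7 to 55 CPM in E13.5 ONL. By the labels, the projection neuron sums were 936 to 1254 CPM in E11.5 olfactory nerve, 130 to 979 CPM in E13.5 olfactory nerve and 153 to 240 CPM in E13.5 ONL, and the interneuron sum in E13.5 ONL was 30.9 to 68 CPM. By in situ hybridization, the study counted Neurod6 among candidate genes that ensheathing cells and Schwann cells do not express. The part of bulb neurons in the ONL levels of Neurog2, Neurod2 and Neurod6 was not tested here.

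**Figure D4:**
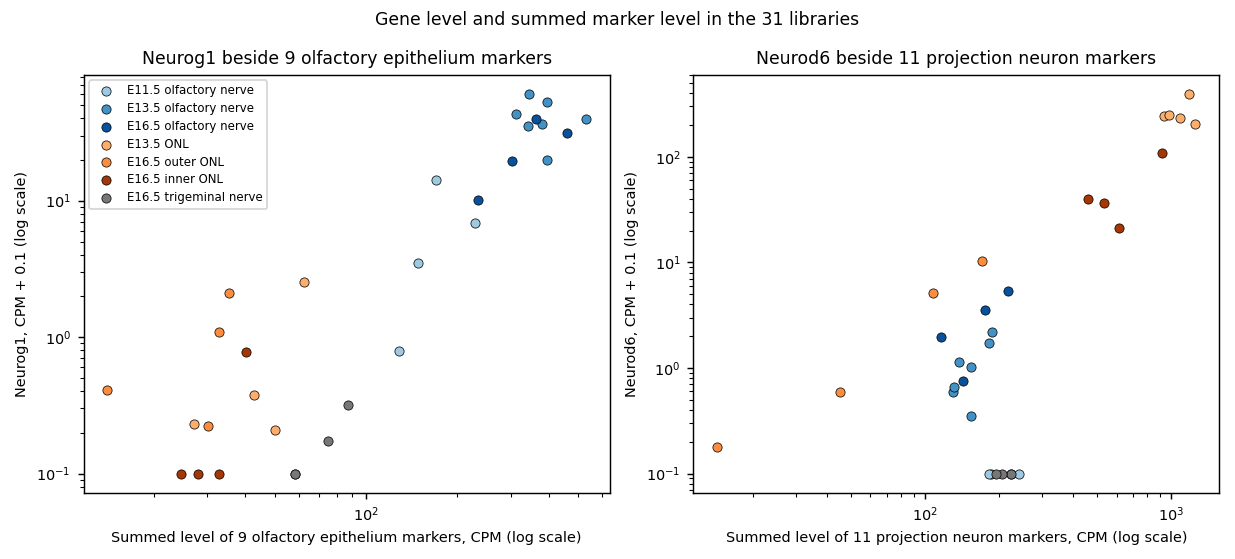
Neurog1 beside the summed level of 9 olfactory epithelium markers (left) and Neurod6 beside that of 11 projection neuron markers (right), each point 1 of the 31 libraries, on log axes in CPM (plus 0.1 for the gene). Libraries with over 3 CPM of Neurog1 had marker sums of 148 CPM or more, and those with over 20 CPM of Neurod6 had sums of 459 CPM or more.

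Inner ONL differed from olfactory nerve at E16.5 in 8 of the 9 genes, against 35.5% of all genes. Neurod2 was higher by 4.99 on the log2 scale (SE 0.80, adjusted p = 1.94e-05) and Neurod6 by 4.19 (SE 0.73, adjusted p = 5.12e-05), and Neurog2 was at least 11.1-fold higher (adjusted p = 4.9e-05). Nhlh1 was at least 68.9-fold lower (adjusted p = 4.99e-10), since it was at 3 counts or fewer in every inner library. The other falls were -7.23 for Neurog1 (SE 1.09, adjusted p = 3.73e-06), -3.64 for Insm1 (SE 0.57, adjusted p = 6.59e-06), -2.23 for Nhlh2 (SE 0.45, adjusted p = 0.000214) and -1.99 for Neurod1 (SE 0.48, adjusted p = 0.00158). The size for Neurog1 rests on inner ONL replicate 2, since the other inner libraries were at 0. Without single libraries Neurod6 was at 3.46 (inner ONL replicate 2) and Neurod2 at 7.07 (olfactory nerve replicate 2). With the early libraries grouped by the labels, Neurod6 had an adjusted p of 0.0515 here.

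Olfactory nerve was compared with trigeminal nerve, a nerve of neural crest and placode origin outside the olfactory system. Higher in olfactory nerve were 7 of the 9 genes, against 13.0% of all genes, and none was lower. Nhlh2 was at least 115-fold higher (adjusted p = 4.98e-09) and Neurod6 at least 25.7-fold (adjusted p = 0.000822), although the latter call was lost by the labels (adjusted p = 0.112). Neurog1 was higher by 7.91 on the log2 scale (SE 1.23, adjusted p = 1.31e-05), Neurod1 by 7.67 (SE 0.77, adjusted p = 1.02e-08), Insm1 by 6.08 (SE 0.74, adjusted p = 2.83e-07) and Nhlh1 by 5.35 (SE 0.59, adjusted p = 4.51e-08). Neurod4 was at least 4.63-fold higher (adjusted p = 0.0325), a call that was lost without olfactory nerve replicate 1 (adjusted p = 0.0587) and without any one of the trigeminal libraries (0.0888 to 0.0964). Without trigeminal replicate 2 the values were 9.19 for Neurog1, 8.29 for Neurod1 and 6.04 for Nhlh1. Neurod2 did not pass (adjusted p = 0.0673), although DESeq2 called it (adjusted p = 0.0217) and so did the test without olfactory nerve replicate 1 (0.0451) or 3 (0.046), and Neurog2 was at or under 3 counts in every library of both nerves.

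At E13.5 the ONL was compared with the olfactory nerve, the same question at the stage when the layer forms. The groups differed in 8 of the 9 genes, against 31.5% of all genes, with Neurog2, Neurod2 and Neurod6 higher in ONL and Neurog1, Neurod1, Nhlh1, Nhlh2 and Insm1 lower. Neurod6 was higher by 8.15 on the log2 scale (SE 0.69, adjusted p = 8.23e-10), Neurod2 was at least 83.2-fold higher (adjusted p = 8.23e-10) and Neurog2 at least 22.1-fold (adjusted p = 8.03e-08). The log2 difference was -6.05 for Neurog1 (SE 0.85, adjusted p = 1.38e-06) and -2.01 for Nhlh1 (SE 0.36, adjusted p = 5.23e-05). For Neurog1 it was -8.50 without the library labelled E11.5 olfactory nerve replicate 2, which had 2.45 CPM. Smaller differences of -1.25 for Insm1 (SE 0.41, adjusted p = 0.0178), -1.03 for Nhlh2 (SE 0.35, adjusted p = 0.0213) and -1.06 for Neurod1 (SE 0.39, adjusted p = 0.0383) were all lost without the library labelled E11.5 olfactory nerve replicate 4 (adjusted p = 0.0555, 0.057 and 0.0935). Other single libraries also decided one or more of these 3 calls, and DESeq2 gave Neurod1 an adjusted p of 0.0685.

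By the labels, the E13.5 result took another shape. The labelled E13.5 olfactory nerve group then held 1 library with 250 CPM of Neurod6 and 6 with 0.252 to 2.08 CPM, the labelled E13.5 ONL group 1 library with 0.912 CPM and 4 at 0, and the labelled E11.5 olfactory nerve group 206 to 397 CPM. The test then called 5 of 9 genes, all lower in the labelled ONL, against 8.81% of all genes called lower. They were Neurod6 (log2 difference -8.62, SE 1.99, adjusted p = 0.0054), Neurod2 (adjusted p = 0.012), Neurod1 (-2.20, SE 0.55, adjusted p = 0.00827), Insm1 (-1.37, SE 0.48, adjusted p = 0.0458) and Nhlh1 (-1.11, SE 0.39, adjusted p = 0.0482). Neurod1, Insm1 and Nhlh1 were lower in the group named ONL by either grouping.

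Between E11.5 and E13.5 the olfactory nerve differed in 6 of the 9 genes, 5 of them higher at E13.5, against 36.6% of all genes called. Neurod1 rose by 3.22 on the log2 scale (SE 0.48, adjusted p = 4.69e-06), Neurog1 by 2.72 (SE 0.72, adjusted p = 0.0037), Insm1 by 1.77 (SE 0.45, adjusted p = 0.00252) and Nhlh1 by 1.51 (SE 0.38, adjusted p = 0.00225). Neurod6 was at least 10.4-fold higher at E13.5 (adjusted p = 0.00262), with 0.252 CPM in its lowest library. Neurog1 was at 3.50 without the library labelled E13.5 ONL replicate 4, the highest of E11.5. Nhlh2, which was already high at E11.5, did not pass (-0.54, SE 0.35, adjusted p = 0.238). Neurog2 was called lower (adjusted p = 0.0241), but a single E11.5 library was over 3 counts, and without the library labelled E13.5 ONL replicate 5 the adjusted p was 0.141. By the labels 3 genes were called, all higher at E13.5, against 9.31% of all genes, namely Neurog1 (5.56, SE 1.21, adjusted p = 0.00228), Nhlh1 (2.19, SE 0.46, adjusted p = 0.00157) and Nhlh2 (1.15, SE 0.39, adjusted p = 0.0428), while Neurod1 was at 1.13 (adjusted p = 0.18) and Insm1 at 1.24 (adjusted p = 0.0968).

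The olfactory nerve at E16.5, set against E13.5, was lower in 4 of the 9 genes, against 13.6% of all genes, and none rose. The log2 difference was -2.06 for Nhlh2 (SE 0.39, adjusted p = 0.000223), -1.76 for Insm1 (SE 0.45, adjusted p = 0.00373), -1.30 for Nhlh1 (SE 0.38, adjusted p = 0.00956) and -1.19 for Neurod1 (SE 0.43, adjusted p = 0.0365). Neurog1 did not pass (-0.72, SE 0.65, adjusted p = 0.438), nor did Neurod6 (1.59, SE 0.72, adjusted p = 0.0993), which was called when these groups were fitted alone (adjusted p = 0.0381). In the E16.5 libraries Neurod1, Neurog1, Nhlh1 and Nhlh2 had the same order, with replicate 4 highest and replicate 2 lowest. Without replicate 3, Nhlh1 (adjusted p = 0.0603) and Neurod1 (0.121) were no longer called, and Neurod1 was lost without several other single libraries and with DESeq2 (0.0687). By the labels 5 genes fell, against 12.6% of all genes, with Nhlh2 (-1.97), Insm1 (-1.71) and Nhlh1 (-1.22) among them again and Neurog2 and Neurod2 in place of Neurod1.

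**Figure D5:**
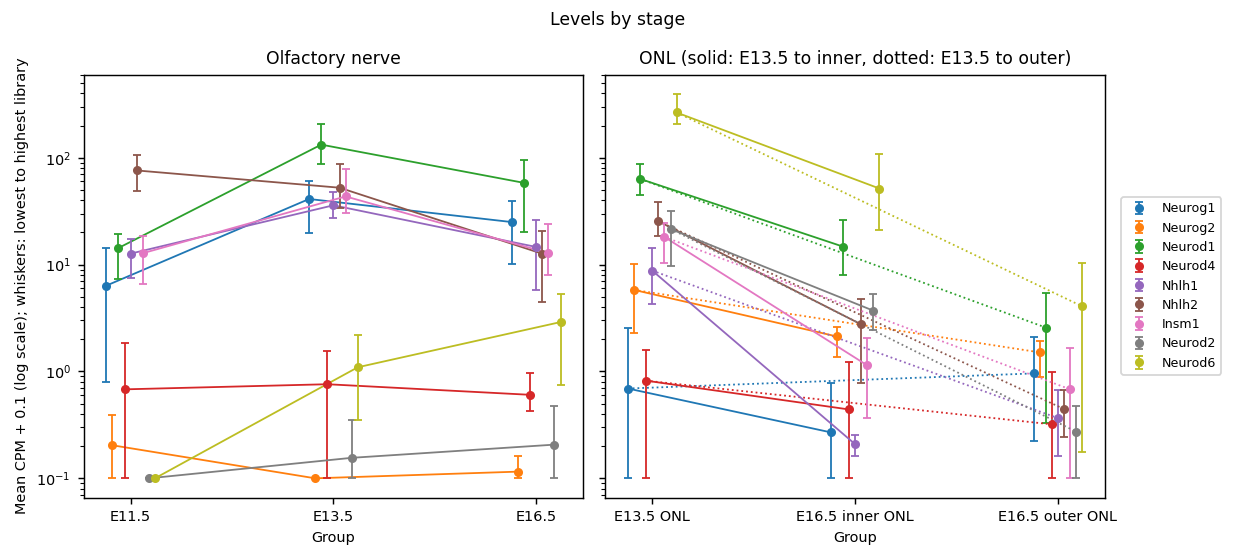
Mean level of the 9 genes in the olfactory nerve at 3 stages (left) and in E13.5 ONL and both E16.5 ONL parts (right), in CPM plus 0.1 on a log axis, with whiskers from the lowest to the highest library. In the nerve Neurod1, Neurog1, Nhlh1 and Insm1 had their highest mean at E13.5, and in the ONL 7 genes were lower in the outer part at E16.5 than at E13.5, while by the labels Neurog2 and Neurod6 were higher there.

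The ONL was lower at E16.5 in most of the genes. Between outer ONL and E13.5 ONL 7 of 9 genes were called, all of them lower in outer ONL, against 41.9% of all genes called either way. Over the 9 genes the log2 difference had a median of -4.90, against 0 over all genes tested. It was -6.85 for Neurod2 (SE 0.79, adjusted p = 1.58e-07), -6.16 for Nhlh2 (SE 0.57, adjusted p = 1.17e-09), -6.03 for Neurod6 (SE 0.77, adjusted p = 6.48e-07), -5.02 for Nhlh1 (SE 0.55, adjusted p = 1.94e-08), -4.90 for Insm1 (SE 0.60, adjusted p = 1.23e-07) and -4.65 for Neurod1 (SE 0.55, adjusted p = 7.79e-08). Without outer ONL replicate 2 they were -7.50 for Neurod2, -7.07 for Neurod6, -5.72 for Nhlh1, -6.04 for Insm1 and -5.33 for Neurod1. The difference of -2.03 in Neurog2 (SE 0.68, adjusted p = 0.0205) was lost without any one of 3 libraries, those labelled E11.5 olfactory nerve replicate 2, E13.5 olfactory nerve replicate 1 and outer ONL replicate 4 (adjusted p = 0.06 to 0.0638).

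Inner ONL was lower than E13.5 ONL in 6 of the 9 genes and higher in none, against 16.4% of all genes called lower and 34.5% called either way. Nhlh1 was at least 41.2-fold lower (adjusted p = 8.09e-09), and the log2 difference was -4.15 for Insm1 (SE 0.57, adjusted p = 1.55e-06) and -3.25 for Nhlh2 (SE 0.45, adjusted p = 1.96e-06). It was -2.58 for Neurod2 (SE 0.60, adjusted p = 0.00148), -2.36 for Neurod6 (SE 0.63, adjusted p = 0.00468) and -2.12 for Neurod1 (SE 0.47, adjusted p = 0.000833). Neurod6 was at -3.06 without inner ONL replicate 2. Neurog2 did not pass, at -1.51 (SE 0.67, adjusted p = 0.0853), but was called with these groups fitted alone (adjusted p = 0.0169) and without the library labelled E13.5 ONL replicate 3 (0.0494). By the labels, 7 of the 9 genes were called in each part, against 35.2% of all genes for outer ONL and 37.6% for inner ONL. Neurog1, Insm1, Nhlh1 and Nhlh2 were then called lower at E16.5 in both parts. Neurog2 and Neurod6 were called higher in both, at 3.92 and 5.42 in outer ONL and 4.44 and 9.09 in inner ONL. Neurod2 was at least 28.6-fold higher in inner ONL. These comparisons share the E13.5 ONL libraries.

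The ONL-to-nerve difference itself was compared between E13.5 and E16.5 with outer ONL as the E16.5 layer. In 6 of the 9 genes it was lower at E16.5, against 6.75% of all genes, and in none higher. Neurod2 was called (adjusted p = 0.000634), with no size given since no E13.5 olfactory nerve library had over 3 counts. The change was -7.62 for Neurod6 (SE 1.00, adjusted p = 1.55e-05), -4.10 for Nhlh2 (SE 0.66, adjusted p = 9.1e-05), -3.72 for Nhlh1 (SE 0.65, adjusted p = 0.000186), -3.47 for Neurod1 (SE 0.65, adjusted p = 0.000403) and -3.13 for Insm1 (SE 0.70, adjusted p = 0.00248). Without outer ONL replicate 2 it was -8.66 for Neurod6, -4.42 for Nhlh1, -4.15 for Neurod1 and -4.28 for Insm1. Neurod2 was no longer called without E16.5 olfactory nerve replicate 2 (adjusted p = 0.218). Neurog1 (1.21, SE 1.15, adjusted p = 0.597) and Neurog2 (adjusted p = 0.33) did not pass. By the labels, Nhlh2, Nhlh1 and Insm1 were lower again, at -5.70, -4.61 and -3.03, while Neurod6 was higher, at 9.13, as was Neurog2, with no size given since its E16.5 nerve libraries were at 3 counts or fewer. By that grouping 5 of the 9 genes were called, against 12.5% of all genes called either way, and Neurod1 was at -2.33 (adjusted p = 0.0642).

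Of 12 related proneural bHLH genes, 6 could be tested. In outer ONL 2 of them, Olig1 and Olig2, were lower than in E16.5 olfactory nerve, both with a log2 difference of -4.55 (SE 0.60 and 0.65, adjusted p = 1.21e-06 and 3.69e-06). Olig1 had 12.4 ± 8.3 CPM (SD, n = 4) in the nerve and 0.53 ± 0.23 CPM in outer ONL. At E13.5, 3 were lower and 1 higher in ONL, with Olig2 again lower, at -7.58 (SE 0.70, adjusted p = 6.04e-10), and Olig1 at 3 counts or fewer in every ONL library (adjusted p = 1.33e-10), and by the labels 2 were lower and none higher.

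The E-protein partners Tcf3, Tcf4 and Tcf12 were present in every library, with summed levels of 340 CPM or more. None of the 3 passed between outer ONL and nerve or between inner and outer ONL at E16.5. At E13.5 2 were lower in ONL, with log2 differences of -0.50 for Tcf4 (SE 0.11, adjusted p = 0.00092) and -0.60 for Tcf12 (SE 0.13, adjusted p = 0.000794), while by the labels 1 was higher and 1 lower.

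Of the 10 inhibitors and repressors, 3 were higher and 4 lower in outer ONL than in E16.5 olfactory nerve. Hey2 and Heyl, targets and mediators of Notch signalling, were higher by 2.14 (SE 0.29, adjusted p = 1.98e-06) and 1.96 (SE 0.28, adjusted p = 3.44e-06), with Hey2 at 373 ± 67 CPM (SD, n = 4) in outer ONL and 84.9 ± 25 CPM (SD, n = 4) in the nerve. Id3 was lower, at -0.71 (SE 0.18, adjusted p = 0.00408). By the labels 3 were higher and 2 lower. By in situ hybridization, the study found Hey2 in ensheathing cells of the ONL and the mucosa. It found Heyl in those of the ONL, in at least some of the mucosa and in vascular cells. The study also described ensheathing cells as much less dense in the mucosa than in the ONL. The part of glia in these differences was not tested here. At E13.5 all 10 inhibitors and repressors were called, 4 higher and 6 lower in ONL, against 31.5% of all genes called. Hey2 was again higher by 2.49 (SE 0.24, adjusted p = 1.22e-09) and Id3 lower, at -1.81 (SE 0.16, adjusted p = 2.03e-10). By the labels 1 was higher and 3 lower, against 17.7% of all genes called.

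Genes known downstream of proneural factors (21 listed, all tested) were mostly lower in outer ONL than in E16.5 olfactory nerve, with 13 lower and 1 higher and a median log2 difference of -1.46, against 0.01 over all genes. The higher one was Rnd2, a Neurog2 target that acts in neuronal migration, at 64.7 ± 3.7 CPM (SD, n = 4) in outer ONL against 25.2 ± 2.6 CPM (SD, n = 4) in the nerve (1.36, SE 0.26, adjusted p = 0.000218). With the early libraries grouped by the labels, 10 were lower and none higher. Between inner and outer ONL 10 were higher and 2 lower in the inner part, with Dcx, a microtubule protein of migrating neurons, higher by 2.69 (SE 0.48, adjusted p = 0.000168) and Ebf1, a factor of olfactory sensory neurons, lower, at -1.24 (SE 0.24, adjusted p = 0.000511). By the labels this came to 6 higher and 1 lower. At E13.5, 8 were higher and 10 lower in ONL. Rnd2 was there at 594 ± 222 CPM (SD, n = 5) against 27.9 ± 12 CPM (SD, n = 7), a log2 difference of 4.41 (SE 0.23, adjusted p = 6.22e-15), and Dcx was higher by 3.24 (SE 0.39, adjusted p = 8.82e-08). By the labels none of the 21 was higher and 5 were lower at E13.5.

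The genes whose pattern was most like each member were found by Pearson's r of log2 CPM plus 0.5 over the 31 libraries, with no test, since all points share the same libraries and groups. For Neurog1 they were Arl14epl (r = 0.962), Cldn6 (0.953) and Gm13589 (0.939), and for Neurog2 Rnd2 (0.934), Gm17750 (0.924) and Ap1s2 (0.912). Neurod2 was most like Tfap2e (0.978), Emx1 (0.969) and Gm17750 (0.955), and Neurod6 like Tfap2e (0.963), Sez6 (0.955) and Cbln4 (0.949). Neurod1 was most like Mycl (0.939), Rhov (0.916) and Sp8 (0.914). Insm1 and Nhlh1 were each the gene most like the other (0.953), followed by Lhx2 (0.951) and Hs3st3b1 (0.95) for Insm1 and Cebpg (0.943) and Hs3st3b1 (0.936) for Nhlh1. Nhlh2 was most like Hs3st3b1 (0.951), Spint2 (0.948) and Lhx2 (0.947), and for Neurod4 the highest value was 0.579, with Sdr39u1. Between members, Neurod2 and Neurod6 had r = 0.945, Neurog2 and Neurod2 0.889, Neurod1 and Insm1 0.9, and Neurog1 and Neurog2 -0.616.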

How the data were processed

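Raw read counts for each gene in 31 libraries were deposited by the authors, who made them from SMART-Seq v4 libraries of laser-microdissected tissue by alignment to mm10 with TopHat2 2.1.0 and counting with HTSeq, and these counts were used as deposited. The strand setting is not given in the sources used here. GENCODE M21 gave a symbol to 47224 of 47729 genes, and 1 row without an identifier held 0 counts. CPM were computed with edgeR 4.0.16 (R 4.3.3) after TMM scaling. After filterByExpr (minimum count 10), edgeR's quasi-likelihood test was run on 1 model holding all 31 libraries and a term for each group. An adjusted p under 0.05 (Benjamini-Hochberg) was a call, and SE is the absolute log2 fold change divided by the square root of F. A group with at most 3 counts in each library was treated as at the floor, for counting error alone, and folds against it are bounds. The fit was tested on simulated data. All 9 members are named, with the context genes of highest mean CPM and up to 3 most alike genes of at least 5 CPM. Of the listed context genes, 1 is not reported here by itself, and counts include it. Members and lists were chosen with earlier results of these data known. The early libraries were grouped as in the study's table of group means, and by label as an alternative. Other alternatives were DESeq2 1.42.0, other scalings and filters, fits of the compared groups alone or of the E16.5 libraries alone, a block for replicate number, and omitting single libraries. At E16.5 the study cut regions from the same sections and embryos, but which libraries share an embryo is not stated. The main model took the libraries as unpaired. Whether the replicate number pairs libraries was checked by the correlation of deviations from group means over 11806 genes. For E16.5 nerve and outer ONL all 4 same-number correlations were over 0.1 (0.257 to 0.513, other pairs -0.399 to 0.388), so the number was taken to pair them, from the data alone, and in the other comparisons it was not. No libraries were duplicates (lowest chi-square per degree of freedom 8.16).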

Additional observations from a re-analysis of the deposited data

Results flagged for a closer look

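In 6 of 48 levels of a gene in a group, 1 library lay far from the others by Dixon's test. For normally distributed values, chance alone meets this in about 1 in 20. Where all other libraries are at 0, Dixon's ratio is at its maximum whatever the count. That rate therefore does not hold for Neurog1 in inner ONL and Neurod4 in outer ONL. Neurog1 was at 2.45 CPM in the E13.5 ONL library labelled E11.5 olfactory nerve replicate 2, against 0.277 CPM or less in the other 4, and at 0.677 CPM in inner ONL replicate 2, the other 3 being at 0. Neurod6 was at 397 CPM in the E13.5 ONL library labelled E11.5 olfactory nerve replicate 1, against 206 to 250 CPM in the other 4. Insm1 was at 77.8 CPM in E13.5 olfactory nerve replicate 3, against 30.6 to 46.4 CPM. Neurod2 was at 0.371 CPM in E16.5 olfactory nerve replicate 2, against 0.0554 CPM or less, and Neurod4 at 0.879 CPM in outer ONL replicate 2, the other 3 being at 0.

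The difference between ONL and olfactory nerve itself differed between E13.5 and E16.5 in 6 genes by edgeR's quasi-likelihood test of the interaction. On the log2 scale it changed by -7.62 for Neurod6, -4.10 for Nhlh2, -3.72 for Nhlh1, -3.47 for Neurod1 and -3.13 for Insm1. For Neurod2 the fitted value was -7.71, which depends on the small count the fit adds, since no E13.5 olfactory nerve library had over 3 counts. By the labels, Neurod6 changed by 9.13 instead.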

How the results depend on the processing

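Members called were within 1.5 times the count given under every alternative run for 6 of the 10 comparisons, and the exceptions follow. By the labels, 2 members were called between inner and outer ONL (4 in the report), 5 between E13.5 ONL and nerve (8) and 3 between E13.5 and E11.5 nerve (6), while all genes called were 1658 against 2733, 3421 against 6087 and 3380 against 7071. Leaving out 1 library gave 5 to 8 members for E13.5 ONL and nerve, 5 to 7 for E13.5 and E11.5 nerve, 2 to 4 for E16.5 and E13.5 nerve, 6 to 8 for E16.5 olfactory and trigeminal nerve, 6 to 8 for outer ONL and E13.5 ONL, 6 to 7 for inner ONL and E13.5 ONL, 5 to 6 for the change in the ONL-to-nerve difference, and 4, 6 and 8 in the other 3. With replicate block, 3 members were called between inner and outer ONL, 6 between outer ONL and nerve, 8 between inner ONL and nerve and 6 between olfactory and trigeminal nerve, with Nhlh2 in the first and Neurod4 in the last not kept by the filter of a fit of those groups alone. The block changed no call of a member between outer ONL and nerve, where the number was taken to pair libraries.

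By the labels, direction turned between E13.5 ONL and nerve for Neurog2 (-3.92), Neurod2 (-7.21), Neurod4 (-0.69), Neurod6 (-8.62) and Nhlh2 (0.56), between E13.5 and E11.5 nerve for Neurod6 (-2.86) and Nhlh2 (1.15), and between E16.5 and E13.5 nerve for Neurod2 (-5.36) and Neurod6 (-3.72). The same held between outer ONL and E13.5 ONL for Neurog1 (-3.35), Neurog2 (3.92), Neurod2 (2.57) and Neurod6 (5.42), between inner ONL and E13.5 ONL for Neurog2 (4.44), Neurod2 (6.85) and Neurod6 (9.09), and in the change of the ONL-to-nerve difference for Neurog1 (-2.73), Neurog2 (9.91), Neurod2 (7.93) and Neurod6 (9.13). All are fitted log2 differences, and those of Neurod2 that involve the labelled E13.5 ONL, and of Neurog2 in the last set, depend on the small count the fit adds, since a group had at most 3 counts in every library. That grouping exchanges libraries between groups.

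Otherwise, the values that turned were of uncalled genes, and the range over single libraries left out is given for each. Neurod6 between outer ONL and nerve was -0.21 with the block and -0.52 to 1.01 (lowest without outer ONL replicate 2). Neurog1 was -0.39 (without the same library) to 2.95 between outer ONL and E13.5 ONL and -6.50 to 0.55 between inner ONL and E13.5 ONL, the latter without the library labelled E11.5 olfactory nerve replicate 2. Neurod2 was -1.21 (without E16.5 olfactory nerve replicate 2) to 1.82 between E16.5 and E13.5 nerve. Neurod4 was -1.59 to 5.62 between inner and outer ONL, -0.53 to 0.38 between E13.5 ONL and nerve, and -0.15 to 1.81 between E13.5 and E11.5 nerve. Of 2400 values of the 62 called pairs of gene and comparison, 2345 kept direction and call, 43 were no longer called and 12 reversed. Of 942 values of the 25 uncalled pairs, 10 became called and 23 reversed. The cause was not tested. Levels near the floor of 3 counts (Neurod4, Neurog2 in nerve) cannot show small differences.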
